A study of Mus musculus with 5 samples.

Results

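At the promoters of the Myc, Mxd and Mlx network in mouse embryonic stem cells (ESCs), Pcgf6 ChIP-seq gave no signal above input DNA that these libraries could resolve, while the promoter of Mga, which encodes a Max partner, held 3.30 and 4.22 times the input level with the 2 antibodies. The 10 genes examined were Myc, Mycn, Mxd1, Mxd3, Mxd4, Mxi1, Mnt, Mlx, Mlxip and Mlxipl, chosen as members of this family out of 22359 protein-coding genes, by a rule that uses no signal but with earlier results of these data known, as were the lists of related genes that hold Mga and Hdac2. For each, sequencing depth within 2 kb of the main transcription start site (TSS) was scaled by the depth sum of its file and compared with the input. The cells were CCE, an established mouse ESC line, below passage 15, grown with 15% fetal bovine serum and 1000 U/ml LIF (the cytokine that keeps mouse ESCs undifferentiated) and cross-linked with disuccinimidyl glutarate and paraformaldehyde. In ChIP-seq, chromatin fragments bound by a protein are pulled down with an antibody and sequenced. There were 2 files for an anti-Pcgf6 antibody from Santa Cruz, 2 for one from Abcam and 1 for input DNA, which is chromatin sequenced without pull-down. Of all promoters, only 0.631% with Santa Cruz and 1.08% with Abcam were called above the input. The absence of a call is therefore not particular to these 10 genes.

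Pcgf6 is a subunit of a non-canonical Polycomb repressive complex (PRC1) that also contains Max and Mga. Myc proteins pair with Max through a basic helix-loop-helix leucine zipper, bind the E-box CACGTG and raise transcription. Mxd proteins and Mnt compete for Max at the same sites and recruit Sin3 and histone deacetylases, which lower it. Mlx pairs with a subset of the Mxd proteins and Mnt, and with Mlxip (MondoA) and Mlxipl (ChREBP), which respond to glucose metabolites. Mycn and Myc are known to sustain self-renewal and proliferation of ESCs. The comparison asked whether Pcgf6, which sits in a complex with Max, was found on the genes of the Max and Mlx network itself.

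The E-box was searched on both strands within 2 kb of each TSS. It was present in 6 of the 10 promoters, with 9 matches in all, against 42.3% of all promoters and 49.9% of the 5753 promoters within the same range of GC content as the 10. Mnt held 3, Mxd3 held 2, and Mxd4, Mlx, Mlxip and Mlxipl held 1 each. The windows of Myc, Mycn, Mxd1 and Mxi1 held none. The closest match to a TSS was 22 bp upstream of Mlx. The stretches upstream of the TSS that hold these E-boxes are printed from NCBIM37 (mm9), 5′ to 3′ along the gene, for Mlx, Mnt, Mxd4, Mxd3 and Mlxip, because they hold the sequence that Max and Mlx heterodimers are known to bind. For contrast, upstream stretches of the promoters at which both antibodies gave a signal, Mga and Hdac2, follow. The Hdac2 stretch is shorter and covers the highest ChIP coverage of Hdac2. The Mga stretch ends at the TSS, and the highest ChIP coverage of Mga lies downstream of it. Capitals mark CACGTG, and no stretch overlaps an annotated exon.
Mlx (chr11:100948291-100948590, plus strand): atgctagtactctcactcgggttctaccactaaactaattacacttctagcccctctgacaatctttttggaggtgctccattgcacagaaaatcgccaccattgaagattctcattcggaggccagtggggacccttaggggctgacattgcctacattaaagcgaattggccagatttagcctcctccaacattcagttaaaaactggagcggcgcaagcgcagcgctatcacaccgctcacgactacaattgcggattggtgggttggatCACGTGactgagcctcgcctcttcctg
Mnt (chr11:74644122-74644421, plus strand): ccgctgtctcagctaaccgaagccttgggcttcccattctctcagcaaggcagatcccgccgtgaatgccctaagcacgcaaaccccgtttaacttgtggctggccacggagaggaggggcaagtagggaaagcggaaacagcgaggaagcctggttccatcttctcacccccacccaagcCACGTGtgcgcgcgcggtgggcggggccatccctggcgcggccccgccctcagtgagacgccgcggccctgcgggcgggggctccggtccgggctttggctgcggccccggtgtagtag
Mxd4 (chr5:34530370-34530669, minus strand): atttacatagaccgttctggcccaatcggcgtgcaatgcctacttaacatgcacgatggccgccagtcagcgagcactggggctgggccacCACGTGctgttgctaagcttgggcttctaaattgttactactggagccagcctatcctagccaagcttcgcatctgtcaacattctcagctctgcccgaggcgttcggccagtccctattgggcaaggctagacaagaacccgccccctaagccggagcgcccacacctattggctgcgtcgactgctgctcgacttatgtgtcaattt
Mxd3 (chr13:55431120-55431419, minus strand): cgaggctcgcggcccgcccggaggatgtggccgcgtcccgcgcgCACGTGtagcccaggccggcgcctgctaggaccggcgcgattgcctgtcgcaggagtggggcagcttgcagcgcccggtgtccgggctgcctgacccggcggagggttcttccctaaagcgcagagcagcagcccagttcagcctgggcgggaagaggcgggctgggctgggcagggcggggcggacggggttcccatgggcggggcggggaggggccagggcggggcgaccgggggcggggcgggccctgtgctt
Mlxip (chr5:123844407-123844706, plus strand): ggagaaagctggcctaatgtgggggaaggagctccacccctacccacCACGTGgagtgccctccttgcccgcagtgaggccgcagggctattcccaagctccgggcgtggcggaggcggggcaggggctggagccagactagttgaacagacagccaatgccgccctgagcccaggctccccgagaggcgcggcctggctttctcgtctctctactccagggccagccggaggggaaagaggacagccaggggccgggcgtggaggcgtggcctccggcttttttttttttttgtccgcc
Mga (chr2:119722664-119722963, plus strand): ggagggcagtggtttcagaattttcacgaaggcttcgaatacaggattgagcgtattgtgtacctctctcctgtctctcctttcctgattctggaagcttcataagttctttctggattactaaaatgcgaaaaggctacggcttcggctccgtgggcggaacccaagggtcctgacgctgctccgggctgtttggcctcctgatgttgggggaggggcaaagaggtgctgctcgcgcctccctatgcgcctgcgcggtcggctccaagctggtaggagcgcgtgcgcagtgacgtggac
Hdac2 (chr10:36693850-36694049, plus strand): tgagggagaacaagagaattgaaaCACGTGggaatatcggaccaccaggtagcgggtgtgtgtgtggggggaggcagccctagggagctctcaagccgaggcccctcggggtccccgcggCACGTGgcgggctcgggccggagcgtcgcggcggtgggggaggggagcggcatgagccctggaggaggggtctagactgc

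The printed stretches of the 5 network genes hold 1 E-box each, that of Hdac2 holds 2 and that of Mga none. These counts depend on where each stretch was cut. Over 300 bp, GC content ran from 50.3% upstream of Mlx to 77.0% upstream of Mxd3. A strict tandem E-box, 2 exact CACGTG sequences with any 5 bases between them, was in none of the 10 windows and in 3 of all promoters. Known targets of Mlx complexes (Txnip, Arrdc4, Pklr and Tkt) had no match in their windows either. The absence of this strict form therefore does not tell whether sites for Mlxipl and Mlx are present. The T-box site AGGTGTGA, a sequence related to the T-box domain of Mga, was in 2 of the 10 (Mxd3 and Mlx) and in 16.5% of all promoters. The E2F-type sequence TTCCCGCC was in 4 (Myc, Mxd3, Mlx and Mlxipl) and in 11.5% of all promoters, or 18.1% of those in the same GC range. The matches describe the sequence and do not show that a factor was bound.

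The files held 22801077 fragments of input, 2289605 and 2299487 with Santa Cruz, and 2761103 and 2849850 with Abcam. Replicate 2 held 88.18% (Santa Cruz) and 88.44% (Abcam) of the fragments of replicate 1. Between them the chi-square per degree of freedom over 10 kb windows was 0.120 and 0.132, against 1.01 between antibodies, so files of 1 antibody differed by less than sampling noise. Each antibody was therefore counted as 1 sample, with 2564624 and 3161326 fragments after joining, and no SD over replicates can be given. The tests below are one-sided exact binomial tests of ChIP against input fragments, adjusted after Benjamini and Hochberg over all 22359 promoters. They compare these libraries and not conditions, and their exact 95% intervals (Clopper-Pearson) cover counting error only. A ratio of 1 is the input level. A typical promoter lay slightly below 1, with genome-wide medians of 0.896 (Santa Cruz) and 0.940 (Abcam), which are −0.16 and −0.09 on the log2 scale.

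None of the 10 promoters was past an adjusted p of 0.05 with Santa Cruz, where 0.631% of all promoters passed, and none with Abcam, where 1.08% passed. At an unadjusted p under 0.05 the count was also 0 with each antibody, against 4.97% and 6.19% of all promoters. The ratio was below 1 at 8 of the 10 with Santa Cruz and at 8 with Abcam, against 59.2% and 55.4% of all promoters with input fragments, and below 1 with both at 6, against 38.4%. Two-sided, 0.00894% of all promoters passed as lower than the input with Santa Cruz. With Abcam 0.0403% did, and the 10 genes were not among them with either antibody. The median over the 10 was 0.616 with Santa Cruz (range 0.398 to 1.25) and 0.732 with Abcam (0.478 to 1.23). The 1 input library enters the ratios of both antibodies, which are therefore not independent of each other.

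**Figure D1:**
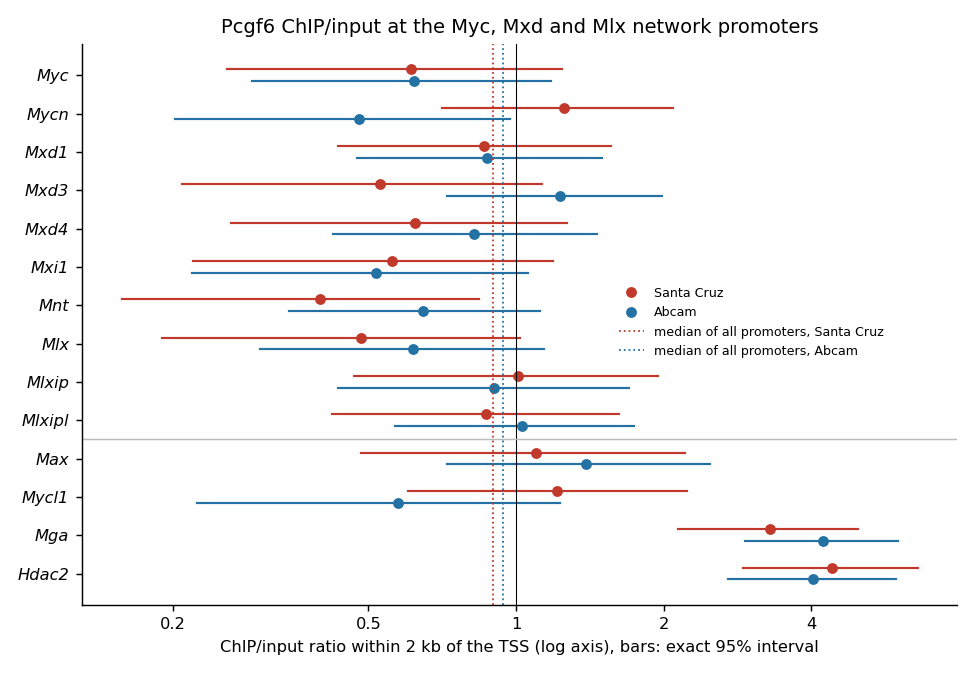
ChIP/input ratio within 2 kb of the TSS on a log axis for the 10 network genes and, under the grey line, for Max, Mycl1, Mga and Hdac2, with Santa Cruz in red and Abcam in blue. Points are ratios, bars are exact 95% intervals, and dotted lines are the medians of all promoters (0.896 and 0.940). The intervals of the 10 genes reach 1 or lie below it, and those of Mga and Hdac2 lie above 2.

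Myc encodes the oncogenic transcription factor after which the network is named. Its TSS is at 61816946 on the plus strand of chromosome 15 (ENSMUSG00000022346.8). Scaled depth there, in ppm (units per 1000000 of the file's depth sum), was 5.05 in the input, 3.06 and 2.91 in the Santa Cruz files and 3.06 and 2.97 in the Abcam files. Both antibodies lay below the input and close to each other. The window held 114 input, 8 Santa Cruz and 10 Abcam fragments, and the ratios were 0.610 (95% interval, 0.257 to 1.24) and 0.619 (0.289 to 1.18). The lowest values were in the part nearest the TSS. Within 500 bp of it there were 0 Santa Cruz fragments (ratio up to 1.06 by the exact interval) and 1 Abcam fragment (0.220, 0.00541 to 1.32), against 32 in the input. From 501 to 2000 bp downstream, inside the gene, the ratios were 1.16 (0.404 to 2.73) and 0.784 (0.243 to 1.97). In a window of 1 kb the ratios were 0.138 and 0.336, and in one of 10 kb the Santa Cruz ratio was 0.924. The start 2031 bp downstream, used by 1 annotated transcript, gave 1.10 (0.581 to 1.92) and 0.572 (0.255 to 1.13). The study that produced these files reported Pcgf6 enrichment at the Myc promoter. It showed genome browser tracks and annotated peaks within 10 kb of TSSs, which are other measures than the ratios given here. The ratios above do not show that enrichment, and the reason for the difference was not tested.

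Mycn, the paralog of Myc expressed in embryonic and neural tissue, has its TSS at 12948720 on the minus strand of chromosome 12 (ENSMUSG00000037169.8). Its scaled depth was 5.22 ppm in the input, 6.45 and 6.92 with Santa Cruz and 2.76 and 1.97 with Abcam. The Santa Cruz files thus lay above the input and the Abcam files below it. With 118 input fragments in the window, the 17 Santa Cruz fragments amounted to a ratio of 1.25 (0.706 to 2.09), the highest of the 10 genes with that antibody. The 8 Abcam fragments gave 0.478 (0.202 to 0.973), the lowest of the 10 with Abcam, with an interval below 1 as at 3.19% of all promoters. The antibodies differed here before adjustment only, with an Abcam/Santa Cruz ratio of 0.382 (0.143 to 0.933) and a two-sided exact binomial p of 0.0329, which the adjustment raised to 1. At this unadjusted level 2.41% of all promoters differed, and 1 of the 10 genes did. After adjustment, 0.00894% of all promoters and none of the 10 differed. The Santa Cruz fragments lay upstream, 10 of the 17 between 501 and 2000 bp before the TSS (1.89, 0.850 to 3.80). The highest 100-bp bin of Mycn was there too, at 5.48 ppb (units per 1000000000 of the file's depth sum, per position), from 1500 to 1401 bp upstream.

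**Figure D2:**
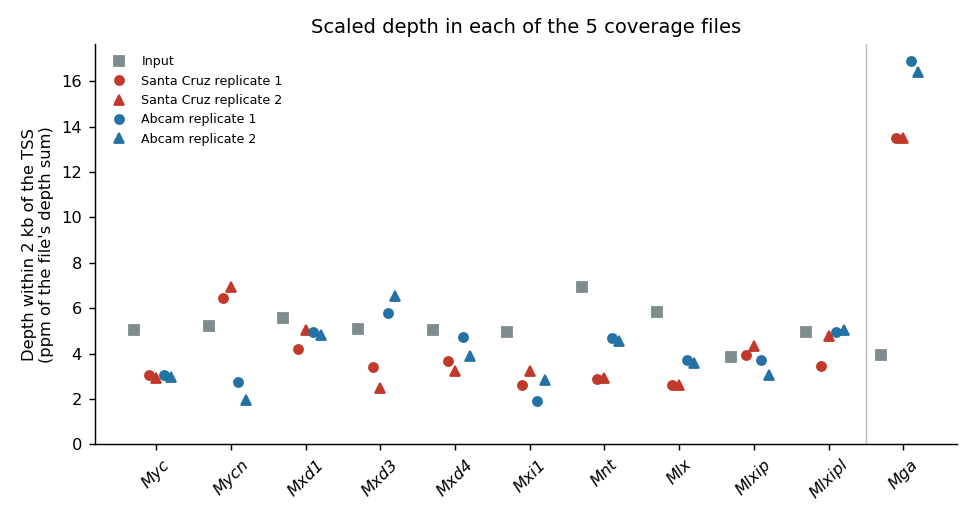
Depth within 2 kb of the TSS in each of the 5 coverage files, in ppm of the file's depth sum, for the 10 network genes and Mga. Squares are the input, circles and triangles replicate files 1 and 2 of each antibody, which hold largely the same fragments. The Mga values lie at 13.5 to 16.9 ppm against 3.95 in the input, and the ChIP values of the 10 genes between 1.91 and 6.92.

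The Mxd genes encode repressors that replace Myc at Max as cells leave the cycle and differentiate. At Mxd1 (chromosome 6, minus strand, TSS at 86619153) depth was 5.55 ppm in the input, 4.21 and 5.06 with Santa Cruz and 4.93 and 4.84 with Abcam. The antibodies gave near-equal ratios, 0.862 (0.434 to 1.56) from 12 fragments and 0.874 (0.475 to 1.50) from 15, against 121 in the input. Both lay close to the median of all promoters.

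Mxd3, the family member linked to dividing cells, has its TSS at 55431119 on the minus strand of chromosome 13 and both an E-box 251 bp and an E2F-type match 103 bp upstream. Its depth was 5.09 ppm in the input, 3.40 and 2.50 with Santa Cruz and 5.79 and 6.53 with Abcam. Here the order of the antibodies was the opposite of that at Mycn. The ratio was 0.529 (0.208 to 1.13) from 7 Santa Cruz fragments and 1.23 (0.722 to 1.98) from 20 Abcam fragments, the highest of the 10 genes with Abcam. The Abcam/Santa Cruz ratio of 2.32 had an interval of 0.941 to 6.49 (two-sided exact binomial p = 0.0709, adjusted p = 1), so the difference did not exceed counting error.

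Mxd4 (chromosome 5, minus strand, TSS at 34530369) had a depth of 5.03 ppm in the input, 3.68 and 3.23 with Santa Cruz and 4.75 and 3.91 with Abcam. The ratios were 0.621 (0.262 to 1.27) from 8 fragments and 0.819 (0.423 to 1.46) from 13, with 112 in the input. Mxi1, also known as Mxd2, lies on the plus strand of chromosome 19 with its TSS at 53384996. Its depth was 4.96 ppm in the input, 2.62 and 3.24 with Santa Cruz and 1.91 and 2.84 with Abcam, so both antibodies were below the input. The ratios were 0.558 (0.219 to 1.19) and 0.518 (0.218 to 1.06). Mxi1 has a further pair of annotated starts far inside the gene. At the one 18907 bp downstream, where the input had 77 fragments, 9 and 15 fragments amounted to 1.02 (0.448 to 2.03) and 1.37 (0.734 to 2.41), and at the one 19940 bp downstream the ratios were 1.02 (0.473 to 1.97) and 1.24 (0.668 to 2.17). The intervals at the main and the inner starts overlapped with both antibodies.

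Mnt encodes a broadly expressed Max and Mlx partner that opposes Myc, and it has the richest E-box content of the 10, with matches 114 bp upstream and 476 and 1382 bp downstream of its TSS at 74644422 on the plus strand of chromosome 11. Its input depth of 6.93 ppm was the highest of the 10 genes. The Santa Cruz files held 2.90 and 2.91 ppm and the Abcam files 4.70 and 4.56. The ratio was 0.398 (0.157 to 0.840) from 7 Santa Cruz fragments, the lowest of the 10, and 0.645 (0.345 to 1.12) from 14 Abcam fragments, against 153 in the input. The Santa Cruz interval lay below 1, as at 3.32% of all promoters. In a two-sided exact binomial test its p of 0.0107 was 0.475 after adjustment, so Mnt did not pass. The Santa Cruz ratio was 0.202 within 1 kb and 0.605 within 10 kb. A start 6548 bp downstream gave 0.797 (0.387 to 1.48) and 0.529 (0.236 to 1.04).

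Mlx, the Max-like protein on which Mlxip and Mlxipl depend to bind DNA, has its TSS at 100948591 on the plus strand of chromosome 11. Depth was 5.84 ppm in the input, 2.62 and 2.61 with Santa Cruz and 3.71 and 3.60 with Abcam. Both antibodies lay below the input, and the ratios were 0.483 (0.190 to 1.02) from 7 fragments and 0.616 (0.300 to 1.14) from 11. Mlxip (chromosome 5, plus strand, TSS at 123844807) had the lowest input depth of the 10 at 3.87 ppm, with 3.93 and 4.35 in the Santa Cruz files and 3.73 and 3.06 in the Abcam files. It lay at the input level with both antibodies, at 1.01 (0.468 to 1.95) and 0.902 (0.434 to 1.70). Mlxipl, the regulator of glycolytic and lipogenic genes in liver, lies on the same strand of chromosome 5 with its TSS at 135582772. Its depth was 4.94 ppm in the input, 3.44 and 4.76 with Santa Cruz and 4.94 and 5.06 with Abcam, and its ratios were 0.869 (0.422 to 1.62) and 1.03 (0.567 to 1.74). The second cluster of Mlxipl starts, 26708 bp downstream, gave 0.675 (0.284 to 1.38) and 0.685 (0.319 to 1.31).

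Ordered by ratio with Santa Cruz, the genes ran Mnt, Mlx, Mxd3, Mxi1, Myc, Mxd4, Mxd1, Mlxipl, Mlxip and Mycn. With Abcam the order was Mycn, Mxi1, Mlx, Myc, Mnt, Mxd4, Mxd1, Mlxip, Mlxipl and Mxd3. Neighbours in either order had overlapping intervals. Mycn was the highest with Santa Cruz and the lowest with Abcam, while Mxd3 was the third lowest and the highest, and Mlxip, Mlxipl and Mxd1 were in the upper part of both orders.

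Along the promoters, no bin of the 10 genes reached the height seen at Mga and Hdac2. In 100-bp bins the Mga coverage peaked at 14.7 ppb per position with Santa Cruz, from 300 to 399 bp downstream of the TSS, and at 15.0 ppb with Abcam, from 200 to 299 bp downstream. The input held 1.03 and 1.37 ppb in these bins. Hdac2 peaked at 28.9 ppb with Santa Cruz and 27.8 ppb with Abcam in the same bin, from 500 to 401 bp upstream. Of the 10 genes, the highest bin was that of Mlxipl with Santa Cruz, at 5.72 ppb from 300 to 201 bp upstream, followed by the Mycn bin above. The Abcam coverage of that Mlxipl bin was 0 and the input 1.74 ppb.

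**Figure D3:**
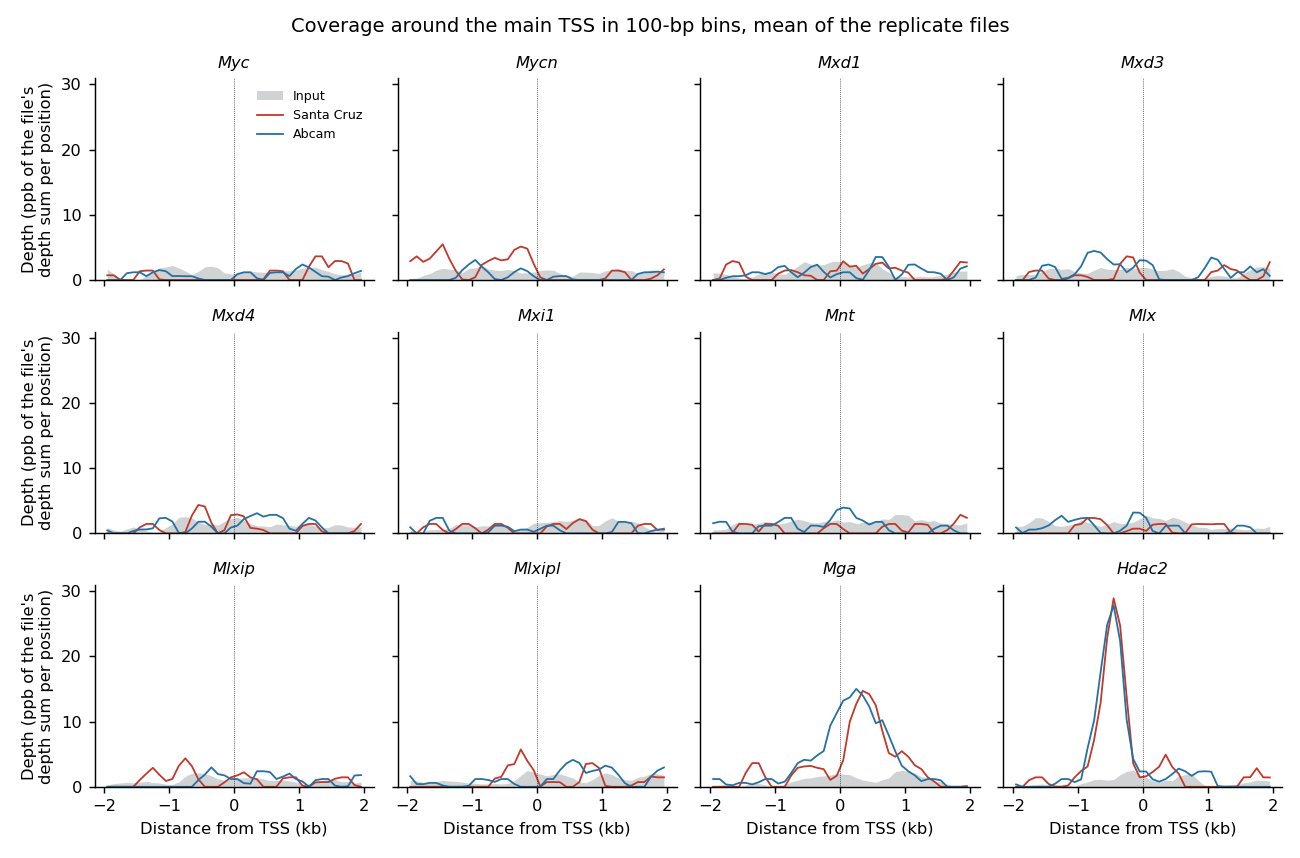
Coverage around the main TSS in 100-bp bins, in ppb of the file's depth sum per position, for the 10 network genes, Mga and Hdac2, on 1 shared linear axis. The grey area is the input, and the red and blue lines are the means of the Santa Cruz and Abcam replicate files. Mga and Hdac2 show a rise of both antibodies over the input (up to 15.0 and 28.9 ppb), and the 10 genes show none above 5.72 ppb.

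At the E-boxes themselves, fragments centred within 250 bp of a match were counted, a window chosen after the promoter values were seen and used with no test. The 9 matches of the 10 genes together had 9 Santa Cruz and 25 Abcam fragments against 166 in the input, a summed ratio of 0.471 and 1.06. At the Mlx E-box there were 1 and 3 fragments against 21, with ratios of 0.414 (0.0100 to 2.57) and 1.01 (0.192 to 3.37). At the upstream E-box of Mnt, 1 and 4 against 23 gave 0.378 (0.00918 to 2.33) and 1.23 (0.308 to 3.59). The highest value was at the Mxd3 E-box 931 bp upstream with Abcam, 5 fragments against 15 and a ratio of 2.35 (0.669 to 6.81), where the single Santa Cruz fragment gave 0.580 (0.0138 to 3.77). By contrast, the Hdac2 E-box 471 bp upstream, printed above, had 28 and 30 fragments against 17 in the input and ratios of 14.3 (7.57 to 27.9) and 12.4 (6.65 to 24.1). At Mga the E-boxes lie 1037 and 1296 bp downstream, away from its highest bins, and the ratios at them were 1.67 (0.501 to 4.42) and 1.02 (0.115 to 4.31) with Santa Cruz and 1.09 (0.275 to 3.13) and 0.830 (0.0930 to 3.50) with Abcam. An E-box was thus found in promoters with and without signal. Over all promoters, the median ratio of the 9452 with an E-box and of the others was the same, 0.896 with Santa Cruz and 0.940 with Abcam. Within the 10 genes the medians of the 6 with and the 4 without an E-box were 0.575 and 0.736 with Santa Cruz, and 0.860 and 0.568 with Abcam, so the order turned between the antibodies.

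None of the 10 genes had a peak of either antibody within 30 kb of its TSS, where 3.69% of all promoters had one with Santa Cruz and 5.73% with Abcam. Peaks were 600-bp windows with more ChIP fragments than the local input predicted, at a Poisson p of 1e-05 or less. At a p of 1e-04, 6.79% and 9.51% of promoters had one, and again none of the 10. With the genome-wide rate in place of the local input rate, Mycn and Mxi1 gained a Santa Cruz peak of 7 fragments each where 0.582 were predicted (exact Poisson p = 2.72e-06), centred 1630 bp upstream of Mycn and 19304 bp downstream of the main Mxi1 start, between its inner starts. In that setting 13.0% of all promoters had a Santa Cruz peak and 15.1% an Abcam peak, and none of the 10 had an Abcam peak. Mga had a peak over its promoter with both antibodies, centred 386 bp downstream with Santa Cruz and 261 bp downstream with Abcam, and another shared one 24214 and 24239 bp upstream. Hdac2 had one centred 475 and 500 bp upstream. On the other lists of related genes, Wdr5 had peaks within 30 kb with both antibodies. The closest were centred 13477 bp (Santa Cruz) and 13502 bp (Abcam) upstream of Wdr5, nearer to the TSS of Brd3. Txnip had a Santa Cruz peak 15920 bp downstream of its TSS, and no Abcam peak.

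Close relatives of the network outside the 10 were Max and Mga, which pair with each other, and Mycl1. Mga (ENSMUSG00000033943.9, chromosome 2, plus strand, TSS at 119722964), which encodes the scaffold of the Pcgf6 complex and a Max partner, was past the threshold with both antibodies. Its depth was 13.5 ppm in both Santa Cruz files and 16.9 and 16.4 in the Abcam files, against 3.95 in the input. The 33 Santa Cruz fragments against 87 gave a ratio of 3.30 (2.14 to 4.98, adjusted p = 5.73e-05) and the 52 Abcam fragments 4.22 (2.93 to 6.01, adjusted p = 4.61e-11, both one-sided exact binomial). In a window of 10 kb these ratios were 2.03 and 2.24 and passed too. Max itself, whose TSS lies over an E-box, had 9 and 14 fragments against 71 and ratios of 1.10 (0.484 to 2.21) and 1.39 (0.724 to 2.49), and did not pass. Mycl1, the third Myc gene, gave 1.21 (0.603 to 2.23) and 0.574 (0.224 to 1.23), also without a call.

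Among 5 genes of Mxd and Mnt corepressors (Sin3a, Sin3b, Hdac1, Hdac2 and Ncor1), 1 passed with each antibody. This was Hdac2, a histone deacetylase of the Sin3 complex (chromosome 10, plus strand, TSS at 36694350), with 38 and 43 fragments against 75 in the input. Its ratios were 4.41 (2.90 to 6.59, adjusted p = 2.27e-08) and 4.04 (2.71 to 5.96, adjusted p = 1.16e-08, same exact test), or 2.62 and 2.36 within 10 kb. The medians of the 5 were 0.700 and 0.989. None of the other lists held a gene past the threshold with either antibody. Of the 9 other E-box factors, the highest over both antibodies were Usf1 (1.04) and Srebf1 (0.974). Of the 8 Myc coactivators and regulators they were Fbxw7 (1.60), the ubiquitin ligase subunit that marks Myc for degradation, and Ruvbl2 (1.06). Of the 11 known Myc targets they were Nop56 (1.54) and Npm1 (1.51), both nucleolar, and 1 of the 11 (Nop56) was past an unadjusted p of 0.05 with Santa Cruz and 0 with Abcam, where 4.97% and 6.19% of all promoters were. Of the 4 known Mlx-complex targets they were Arrdc4 (0.865) and Tkt (0.847).

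All 10 network promoters were rich in GC, at 51.2% to 58.0% within 2 kb of the TSS, and belonged to the 3 highest of 10 equal groups of all promoters by GC content. The median ratio of all promoters was higher at low GC content, at 1.34 with Santa Cruz and 1.32 with Abcam in the lowest group against 0.832 and 0.882 in the highest. Mxd1, Mxi1, Mlxip and Mlxipl were in group 8, with medians of 0.841 and 0.862, Myc and Mlx in group 9 (0.809 and 0.870), and Mycn, Mxd3, Mxd4 and Mnt in group 10. When each promoter was scaled by the median of its own group, the median of the 10 genes was 0.750 with Santa Cruz and 0.830 with Abcam, and 6 of the 10 were below 1 with each. The part of GC content in the low ratios was not tested further. Mga, at 43.8% GC, and Hdac2, at 51.3%, lay far above the upper quartile of their groups.

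**Figure D4:**
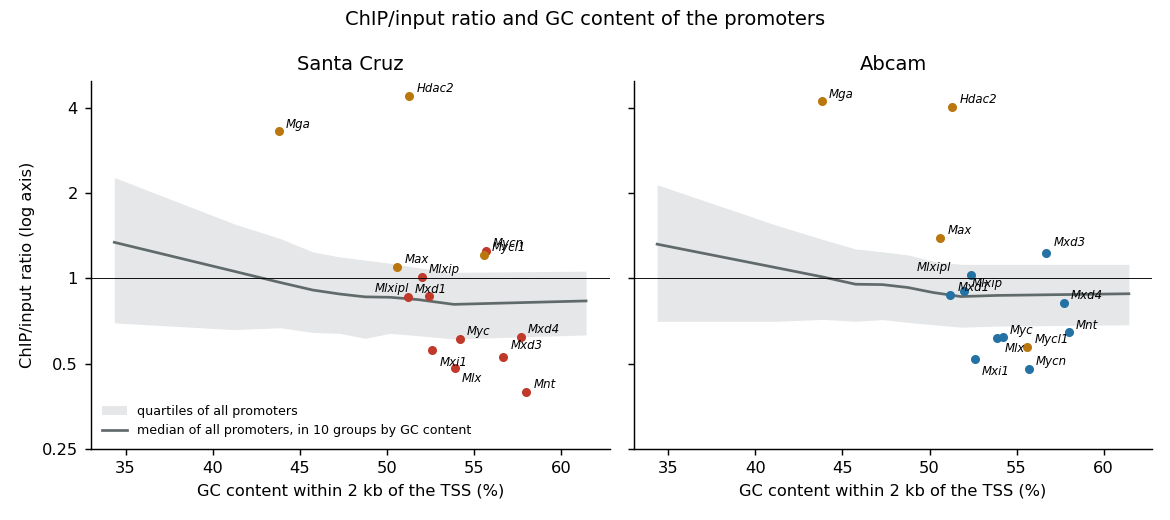
ChIP/input ratio (log axis) against GC content within 2 kb of the TSS, for Santa Cruz and Abcam. The line and grey band are the median and quartiles of all promoters in 10 groups by GC content, coloured points are the 10 network genes, and brown points are Max, Mycl1, Mga and Hdac2. The 10 genes lie between 51.2% and 58.0% GC, where the medians of all promoters are below 1.

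The depth sets what these values can show. At the input counts of the 10 promoters (86 to 153 fragments), the smallest number of fragments that would have passed the adjusted threshold was 24 to 36 with Santa Cruz, or a ratio of 2.05 to 2.43, and 28 to 41 with Abcam, or 1.89 to 2.30. The most found at any of the 10 was 17 with Santa Cruz and 20 with Abcam. The upper bounds of the intervals ran from 0.840 (Mnt) to 2.09 (Mycn) with Santa Cruz and from 0.973 (Mycn) to 1.98 (Mxd3) with Abcam, while the lower bounds at Mga were 2.14 and 2.93. An observed ratio below the one needed could therefore not pass this promoter test at any of the 10. The peak test counts in narrower windows and has a limit of its own, which was not computed for the 10 genes. For scale, the Santa Cruz peak near Txnip held 11 fragments in its best window, where 1.61 were predicted. An Abcam peak upstream of Wdr5 held 18 where 4.49 were predicted. The absence of peaks at the 10 genes therefore does not exclude a smaller local excess.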

How the data were processed

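CCE ESCs were represented by 5 deposited coverage files. The authors had extended each read to 300 bp on mm9 (NCBIM37), and the signal they deposited counts the reads over each position, not scaled to library size and not divided by input. The submitters' processing notes name Bowtie 0.1.2.7, and read filters are not given in the sources used here. Fragment positions were recovered from the steps of the depth, since the planned tests assumed fragments. Fragments of the 2 files of an antibody recurred at a shift of 1 or 15 positions, and were joined with 1 fragment kept per position. A fragment was placed at its middle. Depths ran from 2289605 to 22801077 fragments per file, and precision rests on 7 to 20 ChIP fragments per network promoter.

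The main TSS of a gene was that with most protein-coding transcripts in the GENCODE annotation of NCBIM37, or the upstream one on a tie. Fragments within 2 kb were compared with the input, given the library totals, by exact binomial tests with Benjamini-Hochberg adjustment and a threshold of 0.05. Peaks used Poisson tests in 600-bp windows and 50-bp bins, against the largest of the genome, 5 kb and 10 kb input rates, with the p cutoff of 1e-05 from the study's methods. Genes named were all 10 network genes, the 3 partners, and from each other list those past the threshold or, with none, the 2 highest over both antibodies. The members and lists were chosen with earlier results of these data known. From the list of corepressors, 1 gene is not reported here. Alternatives were fragments as deposited, windows of 1 and 10 kb, other scalings, the most upstream TSS, an input minimum of 20 fragments, two-sided tests, each file left out, summed depth, and other peak settings. Steps were tested on simulated data. The scripts ran in Python 3.11.15 with scipy 1.17.1 for the tests, numba 0.67.0 and numpy 2.4.6 for the fragments, pandas 2.3.3 for tables and matplotlib 3.10.9 for figures.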

Additional observations from a re-analysis of the deposited data

How the results depend on the processing

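None of the 10 network promoters passed the threshold under any alternative run, and the smallest adjusted p among them was 0.475 (Mnt with Santa Cruz, two-sided exact binomial test). Of 240 ratios of single genes under alternatives, 227 kept their side of 1 and 13 crossed it, all at genes whose interval includes 1. Some of the 227 could not cross it. The side of the test and the input minimum do not enter the ratio, and the most upstream TSS gave the main ratio at all 10 genes. Mga and Hdac2 passed with both antibodies under all alternatives run, with their lowest ratios in a window of 10 kb (2.03 and 2.62 with Santa Cruz, 2.24 and 2.36 with Abcam). Not all of these could challenge the calls. The most upstream TSS left both genes' ratios unchanged, and leaving out a file keeps most of the same fragments. Counting every fragment as deposited raised the promoters past the threshold to 383 with Santa Cruz and 621 with Abcam and those that differed between antibodies to 140, since shared fragments then enter more than once, and moved Mlxipl with Abcam to 0.989 and Max with Santa Cruz to 0.994. A window of 10 kb lowered the Santa Cruz count to 91, raised the Santa Cruz median of the 10 genes to 0.780, and gave 0.812 at Mlxip and 0.935 at Max with Santa Cruz and 0.973 at Mxd3 and 0.976 at Mlxipl with Abcam. A window of 1 kb gave 1 promoter that differed between antibodies, and moved Mlxip to 0.932 and Mlxipl to 1.37 with Santa Cruz and Mlxip to 1.01 with Abcam. Scaling within the 10 GC groups gave 1.02 at Mxd1 and 1.03 at Mlxipl with Santa Cruz, and 1.01 at Mxd1 and 1.05 at Mlxip with Abcam. The size of the window also moved single ratios by over 1.5 times with no crossing of 1. With Santa Cruz these were Myc (0.138 in 1 kb and 0.924 in 10 kb) and Mnt (0.202 and 0.605). With Abcam they were Myc (0.336 in 1 kb) and Mycl1 (0.884 in 10 kb). Mga and Hdac2 also moved by over 1.5 times with both antibodies, to the ratios in 10 kb given above. With the genome-wide peak rate, 2 network genes had a Santa Cruz peak, as did 13.0% of all promoters. The cause of these moves was otherwise not tested. Without one replicate file, 110 to 121 promoters passed with Santa Cruz and 207 to 219 with Abcam, and the median of the 10 genes was 0.616 to 0.649 and 0.719 to 0.813. With Abcam, leaving out either file gave 0.999 to 1.03 at Mlxipl and 0.822 to 1.04 at Mlxip, and with Santa Cruz 0.959 to 1.10 at Max. No paired analysis was possible because the replicate files of an antibody hold the same fragments and were counted as 1 sample. Depth limits the calls of the promoter test to ratios of about 1.89 to 2.43 and higher at these promoters.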
